A study of Oryza sativa with 6 samples.

Results

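The type-A response regulators of cytokinin signalling were followed in maternal cells of the young rice seed. Members were taken as every array probe whose name begins with the locus ID of OsRR1 to OsRR7, OsRR9 or OsRR10. Of these 9 loci, 8 had a probe, with 11 probes between them out of 42418 on the array, and OsRR7 (Os07g0449700) had none and was not analysed here. All 11 probes passed the filter on dim signals, so 8 members stood among the 22282 genes and microRNA probes tested. The 6 arrays came from nucellar projection cells of Oryza sativa seeds at 3 days after flowering, collected by laser capture microdissection, which lifts selected cells out of sectioned tissue. The groups, with 2 arrays each, were A-OsMADS29 line 2, A-OsMADS29 line 14 and wild type, all in the ZH11 background and grown under the same conditions. The labels describe both lines as mutant for OsMADS29, a MADS-box transcription factor. They give no meaning for the prefix, no promoter and no altered part of the gene, and 1 seed stage was sampled, so what each line does to OsMADS29 is known only as far as that label goes. Replicates are named independent biological samples, with no number of plants or seeds.

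Cytokinins are plant hormones that promote cell division, among other places in the young seed. Histidine kinase receptors in the membrane bind them and pass a phosphate through histidine phosphotransfer proteins to the response regulators in the nucleus. Type-B regulators bind DNA and switch genes on, and the type-A genes are among their fast targets. Type-A proteins are short, consist mainly of the phosphate-receiving domain, carry no DNA-binding domain and dampen the signal in a feedback loop. Their transcripts are therefore widely used as a readout of cytokinin response.

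The names OsRR1 to OsRR10 come with the rule for the members, and the array files carry locus IDs alone. RefSeq (assembly ASM3414082v1) lists 8 of the 9 names, all 8 on the chromosome that the locus ID gives, with OsRR3 the one not listed. OsRR4 (Os01g0952500) belongs to chromosome 1, OsRR2 (Os02g0557800) and OsRR3 (Os02g0830200) to chromosome 2, and OsRR1 (Os04g0442300), OsRR5 (Os04g0524300) and OsRR6 (Os04g0673300) to chromosome 4. OsRR9 (Os11g0143300) and OsRR10 (Os12g0139400) lie on chromosomes 11 and 12, in a segment duplicated between these, and are known as near-identical copies. Cross-hybridisation of their probes was not tested. By the probe names, the probes of OsRR1, OsRR2, OsRR4, OsRR5, OsRR6 and OsRR9 span coding sequence and 3' UTR, and those of OsRR3 and OsRR10 come from predicted genes supported by expressed sequence tags. The sources used here do not give the genome build of the array design.

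Levels are log2 signals counted from the 75th percentile of their array, so 0 is the signal that 75% of its signals stay below. They are compared between arrays for the same probe and not between genes. Probes well above background made up 72.9% to 79.8% of an array, with 0 saturated spots. Having 2 arrays per group limits precision. Slide 1 held the arrays of line 2 and wild type and slide 2 those of line 14, so a difference between line 14 and wild type cannot be told apart from one between slides, while line 2 against wild type is a comparison within a slide. Pearson's r between replicates was 0.949 in line 2, 0.962 in line 14 and 0.922 in wild type. It was taken across the probes that passed the filter on dim signals, which are not independent. OsMADS29 itself (Os02g0170300, a locus assigned from general knowledge) was at -0.27 and 0.89 in line 2 and 0.17 and 0.00 in line 14, against 0.38 and 0.88 in wild type. Its difference in the mean of the lines was -0.43 (SE 0.41, limma adjusted p = 0.876).

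None of the 8 type-A regulators passed the test in any comparison. In the mean of the lines 7 lay lower than wild type and 1 higher, with a median log2 difference of -0.81, against a median of 0.00 and 49.8% lower among all genes tested. Called after Benjamini-Hochberg adjustment in limma at 0.05 were 0 of the 8, against 0.144% of all genes (32 of 22282). The median moved by over 1.5 times when 1 array was left out, to -0.42 without line 14 replicate 1, -0.52 without line 2 replicate 2 and -1.42 without line 14 replicate 2. At an unadjusted limma p under 0.05 stood 1 member, OsRR4, where 7.89% of all genes did. The smallest adjusted p of a member was 0.589. Signals of RNA from captured tissue do not separate fewer cells of a kind from less transcript per cell.

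**Figure D1:**
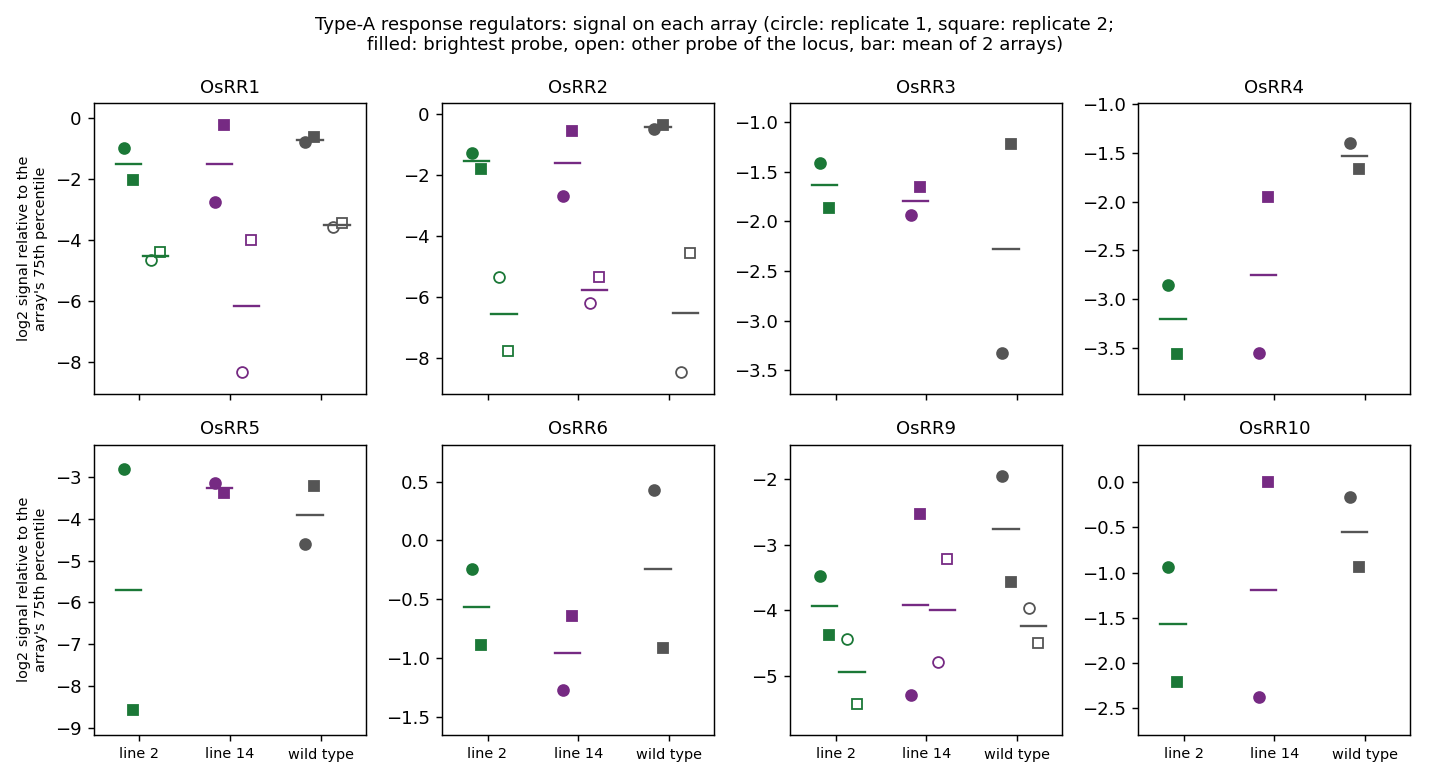
Log2 signal, with 0 at the 75th percentile of its array (vertical axes, each with its own range), for the 8 type-A response regulators in line 2, line 14 and wild type. Circles are replicate 1, squares replicate 2, filled symbols the probe that stands for the locus, open symbols its other probe, and bars the mean of 2 arrays. For OsRR4 both wild-type arrays, at -1.40 and -1.66, lie above all 4 line arrays, and for OsRR1, OsRR2, OsRR9 and OsRR10 the line 14 arrays lie over 2 log2 units apart.

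By the brightest probe of each locus, OsRR4 had the largest difference in the mean of the lines. It is induced by cytokinin in rice seedlings, like most of the family. Its signal was -2.85 and -3.56 in line 2 and -3.55 and -1.95 in line 14, against -1.40 and -1.66 in wild type. All 4 line arrays lay below both wild-type arrays, with line 14 replicate 2 the closest to them. The difference in the mean of the lines was -1.45 (SE 0.52, 95% confidence interval -2.76 to -0.13, limma adjusted p = 0.589), a level 2.72-fold lower. Permuting the 4 line and 2 wild-type labels gave an exact two-sided p = 0.133, and with 15 splits p cannot fall under 0.0667. Line 2 alone differed from wild type by -1.67, with a limma adjusted p of 0.717. Line 14 alone differed by -1.22, with a limma adjusted p of 0.790. The line 14 value rested on single arrays, at -0.42 without its replicate 1 and -2.02 without its replicate 2.

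OsRR2, which the homeobox factor WOX11 is known to repress in rice crown roots, was the only other member whose groups did not overlap at its brightest probe. Its brighter probe read -1.30 and -1.80 in line 2 and -2.69 and -0.57 in line 14, against -0.50 and -0.37 in wild type. All 4 line arrays lay below both wild-type arrays, with line 14 replicate 2 just below them. The difference in the mean of the lines was -1.15 (SE 0.62, 95% confidence interval -2.72 to 0.41, limma adjusted p = 0.759), and it was -0.62 without line 14 replicate 1. Its other probe was dim, at -5.33 and -7.76 in line 2 and -6.19 and -5.34 in line 14, against -8.45 and -4.57 in wild type. The dim probe was well above background on 5 of 6 arrays, all but wild-type replicate 1. Its difference was 0.36 (SE 1.25, limma adjusted p = 0.974 over all probes). That sign rests on wild-type replicate 1, since all 4 line arrays lay below wild-type replicate 2. The dim probe thus settles no direction for OsRR2, and over the 6 arrays the 2 probes correlated at r = 0.16. By the brightest probe, 2 of the 8 members lay lower without overlap and 0 higher, where 8.84% of all genes lay lower and 7.66% higher in this way.

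OsRR1, which the AP2-type factor CRL5 is known to induce during crown root initiation, had 2 probes that agreed better. The brighter read -0.98 and -2.05 in line 2 and -2.77 and -0.24 in line 14, against -0.79 and -0.65 in wild type. Line 14 replicate 1 was the lowest array and line 14 replicate 2 the highest, so the line 14 arrays lay 2.53 apart around wild type. The difference in the mean of the lines was -0.79 (SE 0.76, limma adjusted p = 0.878). It was -0.16 without line 14 replicate 1, -0.52 without line 2 replicate 2 and -1.42 without line 14 replicate 2. The dimmer probe read -4.67 and -4.40 in line 2 and -8.32 and -4.01 in line 14, against -3.58 and -3.43 in wild type. All 4 line arrays lay below wild type at this probe, with a difference of -1.84 (SE 1.16, limma adjusted p = 0.817 over all probes). Line 14 replicate 1 was not well above background there, and the probes correlated at r = 0.83 over the 6 arrays.

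OsRR9 and OsRR10, the near-identical pair whose joint loss in rice is known to raise salt tolerance, followed each other. OsRR9 read -3.48 and -4.38 in line 2 and -5.28 and -2.54 in line 14, against -1.95 and -3.57 in wild type. OsRR10 read -0.94 and -2.21 in line 2 and -2.38 and 0.00 in line 14, against -0.16 and -0.94 in wild type. At these probes, for OsRR9 the brighter of 2, line 14 replicate 1 was the lowest array, line 2 replicate 2 the next lowest, and the groups overlapped. The difference in the mean of the lines was -1.16 for OsRR9 (SE 0.90, limma adjusted p = 0.85) and -0.83 for OsRR10 (SE 0.78, limma adjusted p = 0.874). Single arrays moved both by over 1.5 times. OsRR9 was at -0.48 without line 14 replicate 1, -1.85 without line 14 replicate 2, -0.35 without wild-type replicate 1 and -1.97 without wild-type replicate 2. OsRR10 was at -0.24 without line 14 replicate 1, -1.43 without line 14 replicate 2, -0.44 without wild-type replicate 1 and -0.52 without line 2 replicate 2. The other OsRR9 probe read -4.44 and -5.42 in line 2 and -4.78 and -3.21 in line 14, against -3.97 and -4.50 in wild type. It gave a difference of -0.23 (SE 0.56, limma adjusted p = 0.962 over all probes), smaller than the brighter probe's by more than 1.5 times. At this probe line 2 replicate 2 was the lowest array, and line 2 differed from wild type by -0.69 and line 14 by 0.24.

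OsRR6, whose overexpression in rice is known to dull the cytokinin response, read -0.24 and -0.89 in line 2 and -1.27 and -0.64 in line 14, against 0.43 and -0.92 in wild type. Wild-type replicate 1 stood above the rest and wild-type replicate 2 lay among the line arrays. Its difference in the mean of the lines was -0.52 (SE 0.49, limma adjusted p = 0.875), and it was 0.16 without wild-type replicate 1. OsRR3 was the 1 member with a higher mean in the lines, at -1.41 and -1.87 in line 2 and -1.94 and -1.66 in line 14, against -3.33 and -1.22 in wild type. The line arrays lay between the wild-type arrays. Its difference was 0.56 (SE 0.62, limma adjusted p = 0.896) and turned to -0.49 without wild-type replicate 1. OsRR5, which like OsRR3 is known to lower cytokinin sensitivity when overexpressed, read -2.81 and -8.58 in line 2 and -3.15 and -3.38 in line 14, against -4.61 and -3.21 in wild type. Line 2 replicate 2 was not well above background at this probe and lay over 5 log2 units below line 2 replicate 1. The difference of -0.57 (SE 1.59, limma adjusted p = 0.967) turned to 0.88 without line 2 replicate 2 and to 0.13 without wild-type replicate 2.

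**Figure D2:**
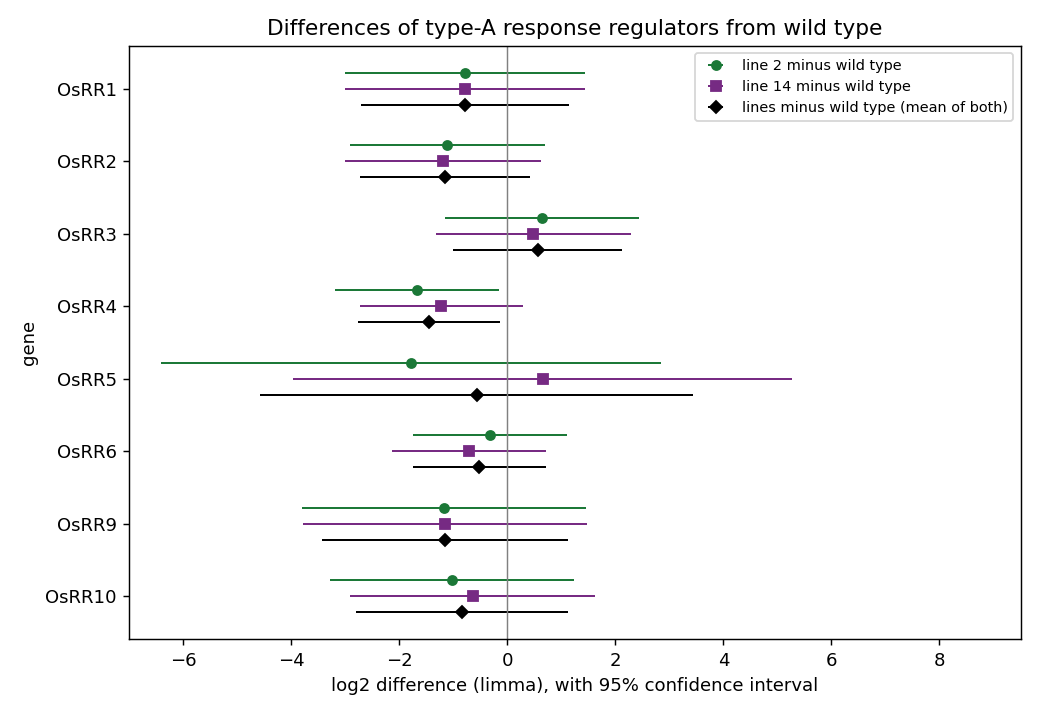
Log2 difference from wild type (horizontal axis, limma) of each type-A response regulator, for line 2 (circles), line 14 (squares) and the mean of both (diamonds), with 95% confidence intervals as bars. The intervals of OsRR4 in line 2 and in the mean of the lines exclude 0 before adjustment, and all others include it.

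By line, 7 of the 8 members lay lower in line 2 than in wild type, with a median log2 difference of -1.07, and 6 of the 8 lower in line 14, with a median of -0.75. In line 2, 0 members were called in limma, against 0.0224% of all genes, and 1 (OsRR4) had an unadjusted p under 0.05, against 6.4% of all genes. OsRR1, OsRR2 and OsRR4 lay below wild type on both line 2 arrays, where 17.4% of all genes did. In line 14, 0 members were called, against 0.0404% of all genes, and 0 had an unadjusted limma p under 0.05, against 7.12%. OsRR2 and OsRR4 lay below wild type on both line 14 arrays, where 18.1% of all genes did. The comparisons share the wild-type arrays. The count of line 14 rested on 1 array. Without line 14 replicate 1, 3 of 8 members lay lower and the median was 0.35, and without line 14 replicate 2, 6 lay lower and the median was -1.93. In line 2, 5 of 8 lay lower without line 2 replicate 2, with a median of -0.32, and 7 without line 2 replicate 1, with a median of -1.49. Leaving out wild-type replicate 1 gave 8 of 8 lower in line 14 with a median of -0.46, and 7 lower in line 2 with a median of -0.75.

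Line 14 minus line 2 gave 0 calls among the 8 members and 0% among all genes in limma, and 0 members had an unadjusted p under 0.05, against 3.46% of all genes. The median of the members was 0.02, with 5 higher and 3 lower in line 14. For 0 of the 8 did the arrays of the lines not overlap, where 31.5% of all genes had no overlap. For OsRR1 the difference was 0.01 (95% confidence interval -2.21 to 2.23) and for OsRR9 0.02 (95% confidence interval -2.60 to 2.65), so differences of several-fold in either direction lay within the intervals. OsRR5 had the largest, 2.43 (95% confidence interval -2.19 to 7.06, limma adjusted p = 1.000), and it was -0.45 without line 2 replicate 2.

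Replicates of these genes lay further apart than those of the typical gene. The median distance between the 2 arrays of a group was 0.81 log2 units over the members in line 2, 1.86 in line 14 and 1.07 in wild type, against 0.40, 0.39 and 0.53 over all genes in the same groups. In line 14, 5 of 8 members were over 1 log2 unit apart, against 16.2% of all genes. The 95% confidence interval of a member reached 1.23 to 4.01 log2 units to either side of its difference in the mean of the lines, against a median of 0.90 over all genes.

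**Figure D3:**
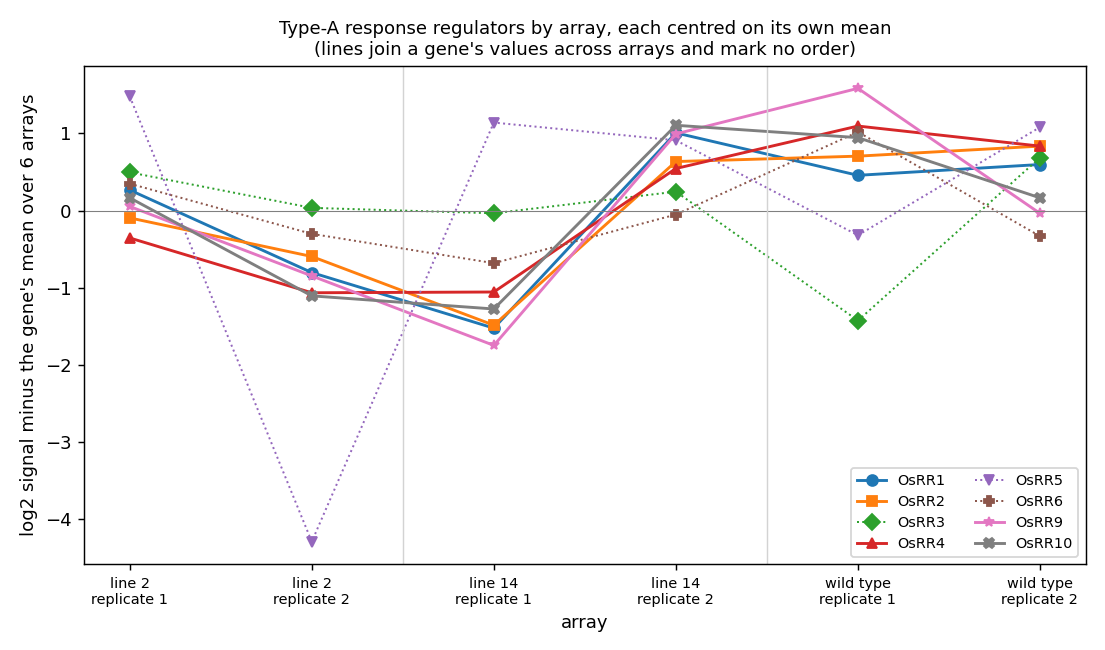
Log2 signal of each type-A response regulator minus its own mean over the 6 arrays (vertical axis), by array. Solid lines are OsRR1, OsRR2, OsRR4, OsRR9 and OsRR10, which are low together on line 2 replicate 2 and line 14 replicate 1, and dotted lines are OsRR3, OsRR5 and OsRR6.

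Several members moved together across the arrays, partly along the groups. Both wild-type arrays were high in OsRR1, OsRR2 and OsRR4, while each line held 1 low array and 1 higher one. For OsRR9 and OsRR10 wild-type replicate 2 was no higher than line 2 replicate 1. OsRR1, OsRR2, OsRR4, OsRR9 and OsRR10, picked out after their values were seen, had r from 0.85 to 0.95 in all 10 of their pairs over the 6 arrays, a range that their choice fixed. Over all 28 pairs of the 8 members the median r was 0.56 and 23 were positive (82.1%), where 49.9% of the pairs of all genes were. The points share their arrays, RNA amplification and normalization, and OsRR9 and OsRR10, at 0.95, may also share target sequence. The arrays low in these members belonged to different lines and slides. Over the 8 members the median of the centred signal was 0.22 and -0.83 on the line 2 arrays and -1.17 and 0.77 on the line 14 arrays, against 0.83 and 0.64 in wild type. Line 14 replicate 1 held the lowest value of 5 of the 8 members, where 16.5% of all genes had their lowest value on it. By these medians line 14 replicate 2 thus lay near wild type, and line 14 replicate 1 near line 2 replicate 2. Single members departed from this. OsRR5 read -3.15 on line 14 replicate 1 and -8.58 on line 2 replicate 2. OsRR4 on line 14 replicate 2, at -1.95, lay below both wild-type arrays.

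Marker genes of seed tissues, set from general knowledge of locus IDs, gave the following levels. The summed signal of 6 endosperm loci, in multiples of the array's 75th percentile, was 20.6 and 7.66 in line 2 and 10.5 and 11.8 in line 14, against 11.1 and 16.0 in wild type. Branching enzyme IIb (Os02g0528200) made up most of that sum, and 4 or 5 of the 6 loci were well above background on each array. In the mean of the lines 1 of the 5 loci tested lay higher and 4 lower. Named after their values were seen, the glutelin locus Os10g0400200, the 1 higher, differed by 1.44 (limma adjusted p = 0.515) and Waxy (Os06g0133000) by -4.02 (limma adjusted p = 0.630). Waxy read -1.09 and -6.99 in line 2 and -6.87 and -6.40 in line 14, against -1.34 and -1.30 in wild type. Line 2 thus overlapped with wild type at Waxy, which was well above background on 5 of 6 arrays. For 3 loci of green pericarp layers the sum was 104 and 67.5 in line 2 and 113 and 73.8 in line 14, against 78.4 and 57.6 in wild type. For 3 loci of the nucellus and nucellar projection, OsMADS29 and 2 sugar exporter genes, it was 59.3 and 58.5 in line 2 and 89.1 and 87.1 in line 14, against 65.5 and 50.6 in wild type, and all 3 were detected on every array. OsSWEET11 (Os08g0535200) was the largest part of that sum on every array, with a log2 difference of -0.04 in the mean of the lines. OsSWEET15 (Os02g0513100) was at 1.38 (limma adjusted p = 0.383) with all line arrays above wild type. In line 14, where the sums were highest, OsSWEET15 differed from wild type by 1.76 and OsSWEET11 by 0.21. The part of these tissues in the members' values was not tested.

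The genes whose values over the 6 arrays were most like the mean of the members were Os02g0490500 (r = 0.99), Os03g0843000 (r = 0.98) and Os09g0261300 (r = 0.98), out of 22234 genes. Os02g0490500 read -3.19 and -5.15 in line 2 and -5.10 and -2.20 in line 14, against -2.26 and -2.59 in wild type. Its likeness to the members is what it was chosen for, and the files give these loci no function.

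**Figure D4:**
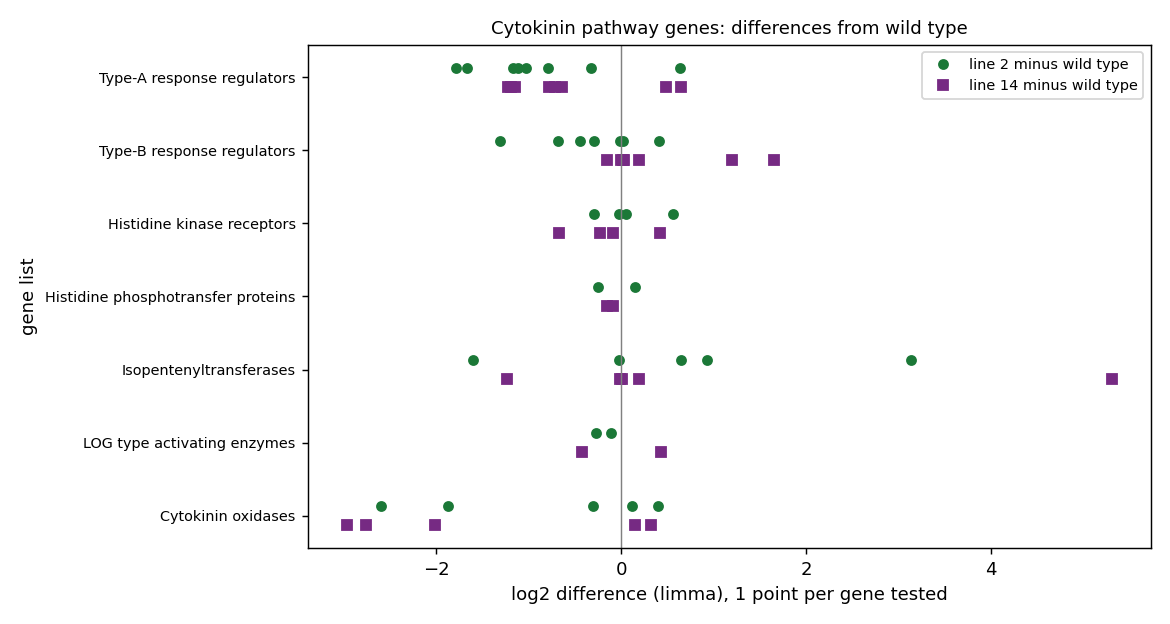
Log2 difference from wild type (horizontal axis, limma) for each gene tested of 7 cytokinin lists, in line 2 (circles) and line 14 (squares). Type-A regulators lie mostly below 0, receptors and phosphotransfer proteins lie between -0.68 and 0.55, and no gene shown was called.

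The rest of the pathway was described from 29 loci, assigned to lists from general knowledge since the files pair no locus with a function. Of these 25 were tested and 0 were called in limma in any comparison, with 2 at an unadjusted p under 0.05 in the mean of the lines, both lower, where 4% of all genes lay lower at that level. Os05g0374200 was among the 2 and passed the filter on dim signals only through wild type, where it is high. The 25 loci had a median log2 difference in the mean of the lines of -0.02, against -0.81 for the type-A regulators, a contrast that was not tested. The 4 receptor loci had a median of -0.07 and ranged from -0.49 to 0.48, and the 2 phosphotransfer loci were at -0.20 and 0.03. The 7 type-B regulators tested of 8 had a median of 0.01, with 4 higher and 3 lower. The 2 loci of the LOG type, which release active cytokinin, were at 0.16 and -0.35.

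Among 5 isopentenyltransferases, which make the hormone's precursor, 3 lay higher and 2 lower. The widest difference, at Os03g0356900, was picked out after its values were seen. That locus read -0.89 and -5.02 in line 2 and -0.18 and -1.38 in line 14, against -9.22 and -2.95 in wild type. It differed by 4.22 in the mean of the lines (SE 2.02, limma adjusted p = 0.718), where line 2 overlapped with wild type and line 14 lay above it. Wild-type replicate 1 was not well above background at this locus, so the size of 4.22 rests largely on that array. Os03g0356900 thus passed the filter on dim signals only through the lines, where it is high. Here the filter favoured a higher level in the lines, and the difference is no independent support. Os03g0810100 read -4.90 and -5.25 in line 2 and -4.56 and -4.84 in line 14, against -3.36 and -3.57 in wild type. All line arrays lay below wild type, with a difference of -1.42 (SE 0.27, limma adjusted p = 0.223). Among 5 cytokinin oxidases tested of 7, which degrade the hormone, 2 lay higher and 3 lower, with a median of -1.16. Os05g0374200 was not well above background on any line array and read -7.23 and -8.55 in line 2 and -8.71 and -8.83 in line 14, against -6.88 and -5.15 in wild type. The mean of the lines was at least 3.32-fold below the mean of wild type. For each line array the larger was taken, the probe's signal or the dimmest signal well above background. Without that step the log2 difference was -2.32 (limma adjusted p = 0.399). The bound holds for the means alone, since line 2 replicate 1, at -7.23, lay near wild-type replicate 1, at -6.88. Os03g0810100 and Os05g0374200 were the 2 of the 25 whose line arrays did not overlap with wild type, both lower, where 8.84% of all genes lay lower in this way. Os05g0374200 passed the filter on dim signals only through wild type, the group where it is high. The filter thus favoured a lower level in the lines at this locus, which is no independent support.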

How the data were processed

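RNA of laser-captured nucellar projection cells was amplified in 2 rounds and hybridised to 6 arrays, per the labels' protocols. The arrays are Agilent design 15241 with Cy3 as the single dye, read by Feature Extraction 10.7.3.1, per the file headers. The deposited intensity of a spot is linear and already had background taken off within its array. A deposited log2 table of the authors' own values tracked the log2 spot signal at r of 0.998 or above on each array, with a median of 10.4 in all 6 columns. Sorted by size, each of its 6 columns matched the first to within 0.000577, so the arrays share 1 distribution, as quantile normalization gives. The sources used here do not name the method.

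Each array had 45151 spots. The 1417 control spots, 59 probes that the design names as controls, and spots marked as outliers (0.0983% to 0.183%) were left out. Each array's 75th percentile was taken from its log2 signals, and spots of a probe were averaged. Kept were 32419 of 42418 probes, those with at least 0.5 of their spots well above background on both arrays of some group. The brightest kept probe stood for a locus. Limma 3.58.1 in R 4.3.3 fitted a mean per group over all 6 arrays, with Benjamini-Hochberg adjustment over 22282 genes at 0.05, and all kept probes were also fitted singly. Degrees of freedom were 3 (residual) and 2.36 (prior). The code was tested on simulated data. Figures were drawn with matplotlib 3.10.9.

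The members and lists were chosen with earlier results of these data known. Named were all members, OsMADS29, pathway loci called or without overlap between lines and wild type, and the 3 genes most like the members' mean. Alternatives covered background correction, normalization, the authors' table, the filter, the probe per locus, an intensity trend, replicate and slide blocks, the arrays fitted, the threshold and each array left out. Normexp used the median spot signal, since the files hold no mean signal.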

Additional observations from a re-analysis of the deposited data

Results flagged for a closer look

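Over the 4 line arrays, 2 of the 11 probes held 1 array far below the other three. The OsRR5 probe read -8.58 on line 2 replicate 2, where the gap to the next array was 0.902 of the range of the 4 arrays. The dimmer OsRR1 probe read -8.32 on line 14 replicate 1, with a gap of 0.848 of the range. Both gaps exceed Dixon's 95% critical value for 4 arrays, which chance passes in about 1 of 20 groups. Neither spot was well above background on that array.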

How the results depend on the processing

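The count of members called was 0 in each of the 4 comparisons under all alternatives run, also at adjusted p under 0.1 and with every kept probe on its own. With the replicate block it was 0 as well, and since 0 were called without it no call could be lost. Over all genes in the mean of the lines, limma called 32 without the block and 1 with it. Same-numbered arrays deviated together at r = 0.06 between line 2 and wild type, 0.02 between line 14 and wild type and 0.08 between the lines. The labels do not say that a number marks a shared plant, day or batch, and these correlations cannot exclude one. Slide as a block gave a value for line 2 alone. In the mean of the lines OsRR1, OsRR2, OsRR4, OsRR9 and OsRR10 were lower under every alternative that gives a locus 1 value. The dim OsRR2 probe fitted singly was at 0.36, with wild-type replicate 1 not well above background. By such alternatives OsRR1 ranged from -1.42 to -0.16, OsRR2 from -1.69 to -0.40, OsRR9 from -1.97 to -0.35, OsRR10 from -1.43 to -0.24, and OsRR4 ranged from -1.85 to -1.05. Single differences turned sign, none of them called, and the cause was not tested. Line 14 minus line 2 was -0.012 for OsRR1 with normexp and quantile normalization, and with the mean of a locus's probes it was -0.81 for OsRR1 and 0.35 for OsRR2. Leaving out 1 array at a time, the difference between the lines' mean and wild type ranged from -0.49 to 1.61 for OsRR3, from -2.01 to 0.88 for OsRR5 and from -1.19 to 0.16 for OsRR6. Line 2 minus wild type ranged from -0.41 to 1.69 for OsRR3, from -4.67 to 1.1 for OsRR5 and from -0.999 to 0.35 for OsRR6. Line 14 minus wild type ranged from -2.05 to 0.48 for OsRR1, from -0.57 to 1.53 for OsRR3, from -0.048 to 1.35 for OsRR5, from -2.52 to 0.22 for OsRR9 and from -1.83 to 0.55 for OsRR10. Line 14 minus line 2 ranged from -1.26 to 1.27 for OsRR1, from -1.15 to 0.98 for OsRR2, from -0.39 to 0.071 for OsRR3, from -0.35 to 1.25 for OsRR4, from -0.45 to 5.32 for OsRR5, from -1.34 to 1.39 for OsRR9 and from -0.81 to 1.57 for OsRR10.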
